A study of Mus musculus with 12 samples.

Results

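Cthrc1, Lrrc15, Adam12, Matn3, Fap, Tgfbi and Bdnf are 7 of the 40760 genes counted in bulk RNA-seq of Pdgfra+ cells (CD140a+, the sorted surface form of the PDGF receptor alpha) from mouse lung. They were chosen by gene symbol, as genes of the activated fibroblasts that appear in fibrotic lung, with earlier results of these data known. The same holds for the gene lists below, so counts of calls are a description and no independent support. Matn3 and Adam12 were included because they rose greatly in the bleo libraries labelled Pear1-/-, a rise that can be measured from the vehicle libraries with that label or from WT bleo. Each comparison uses at least 1 of these groups, so their values are given throughout as a description, with no test. No cut-off was set for that rise. The 12 libraries fell into 4 groups of 3. They came from male mice, wild type (WT) or Pear1-/-, after vehicle or after bleomycin (bleo), a DNA-damaging drug that causes lung fibrosis in mice. The study's methods give C57BL/6 mice and a gene-trap cassette in Pear1 in every cell of the body, so the allele is not limited to fibroblasts. Dose, time after bleo, and how many mice gave each library are not stated for these libraries, and the labels do not say that replicates are separate animals. p values therefore measure only the spread between these libraries, which may be technical.

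Activated fibroblasts are the matrix-secreting cells of a scar. In injured lung they are marked by CTHRC1, a secreted protein with a short collagen-like stretch, and in several diseased tissues by LRRC15, a membrane protein with leucine-rich repeats that TGF-β induces. ADAM12 is a membrane metalloprotease and FAP a membrane serine protease of activated stroma. MATN3 is a matrilin, an adaptor protein of the matrix best known from cartilage. TGFBI is a secreted, TGF-β-induced protein that binds integrins and collagens, and macrophages make it too. BDNF is a neurotrophin, a growth factor of neurons that other cells also secrete.

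Total counts were 6702948 to 10447101 per library, and all 7 genes passed the filter on low counts with the 17418 genes tested. WT vehicle replicate 2 stood apart: the chi-square of its counts per degree of freedom was 13.4 and 13.9 against the other WT vehicle libraries and 1.48 to 2.05 against the libraries labelled Pear1-/- vehicle, where all other pairs within a group gave 1.29 to 3.36. Results that rest on it are given with and without it. Pear1 itself had 547 ± 28.8 normalized counts in WT vehicle and 520 ± 24.02 in the vehicle libraries labelled Pear1-/- (SD, n = 3), and 254 ± 14.0 and 357 ± 14.2 after bleo. Between the vehicle groups its log2 fold change was -0.08 (SE 0.08, edgeR adjusted p = 0.49). Between the bleo groups it was 0.48 (SE 0.08, edgeR adjusted p = 7.5e-05), higher in the libraries labelled Pear1-/-. The study's methods describe an allele that traps and truncates the Pear1 transcript. The table has 1 value per gene and not per exon, so it cannot show where in Pear1 the reads fell. How these whole-gene counts relate to the trapped allele or the label was not tested. Scaled to fibroblast markers as described further on, the difference between the bleo groups turned from 0.48 to -0.14 on the log2 scale, where the median of all genes moved from -0.01 to -0.63. Pdgfra, the sort marker, was at 4565 ± 325 in WT vehicle, 4165 ± 39.1 in the vehicle libraries labelled Pear1-/-, 1360 ± 29.9 in WT bleo and 2392 ± 18.8 in the bleo libraries labelled Pear1-/-. The leukocyte gene Ptprc was at 3303 ± 479, 3818 ± 263, 7616 ± 97.8 and 3365 ± 109 in the same order, so leukocyte RNA was present in every library.

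In the mouse genome (GRCm38), Cthrc1 lies at chr15:39076932-39087121 on the plus strand, Lrrc15 at chr16:30269302-30283256 on the minus strand, Adam12 at chr7:133883199-134232146 on the minus strand and Matn3 at chr12:8947929-8972028 on the plus strand. Fap lies at chr2:62500943-62574075 on the minus strand, Tgfbi at chr13:56609523-56639562 on the plus strand and Bdnf at chr2:109674700-109727007 on the plus strand. An antisense gene, Gm45346, reaches exons of Bdnf, and whether counting used strand is not given in the sources used here, so reads of the pair may not have been told apart. RefSeq promoter windows (GRCm38.p6) were matched for 4 of the 7 genes, in 10 windows, of which Bdnf has 7. The windows of Lrrc15 and Matn3 are shown because these genes had the lowest counts in vehicle libraries and were high together in the bleo libraries labelled Pear1-/-. Each runs 5′ to 3′ on the gene's strand over 240 bases and ends 11 bases before the RefSeq start. The windows lie at chr16:30283265-30283504 (minus) and chr12:8947679-8947918 (plus). Capitals mark the letters of an AP-1 motif in Lrrc15 and of Smad-binding and TEAD motifs in Matn3.
Lrrc15: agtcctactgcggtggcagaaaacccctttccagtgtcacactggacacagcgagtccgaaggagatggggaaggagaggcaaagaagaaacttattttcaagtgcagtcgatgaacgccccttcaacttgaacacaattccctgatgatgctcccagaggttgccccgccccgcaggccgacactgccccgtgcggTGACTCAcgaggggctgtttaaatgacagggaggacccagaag
Matn3: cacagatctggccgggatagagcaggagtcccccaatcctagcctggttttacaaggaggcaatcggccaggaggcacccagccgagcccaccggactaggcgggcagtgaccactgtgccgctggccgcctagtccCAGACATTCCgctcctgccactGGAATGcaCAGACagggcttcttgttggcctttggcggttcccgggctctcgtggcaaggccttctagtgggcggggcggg

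Both strands of the 10 windows were searched for 5 motifs. The AP-1 motif was TGANTCA, which 6.58% of all 32851 windows of this length hold. The Smad-binding element was CAGAC, held by 40.9% of windows, and the TEAD motif was CATTCC, held by 12.2%. The TATA box was TATAAA, held by 12.1%, and the E-box of Snail factors was CACCTG, held by 16.6%. Lrrc15 held the AP-1 motif 53 to 47 bases before the start. Matn3 held the Smad-binding element at 113 to 109 and at 83 to 79 bases before the start, and the TEAD motif at 109 to 104 bases and, on the opposite strand, at 91 to 86, the first of each sharing a base. Tgfbi held the Smad-binding element on the opposite strand at 239 to 235 and at 85 to 81 bases. Of the 7 windows of Bdnf, 4 held the Smad-binding element, 2 the TEAD motif and 1 the AP-1 motif. Neither the TATA box nor the Snail E-box was in any of the 10 windows, which says only that these letters are not there.

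Cthrc1 had the widest range of the 7 genes as a ratio of highest to lowest library. In WT vehicle its 3 libraries had 24.3, 30.4 and 35.5 normalized counts, and in the vehicle libraries labelled Pear1-/- 27.5, 47.3 and 14.2. After bleo it had 470.2, 508 and 492 in WT, and 2491, 2476 and 2551 in the libraries labelled Pear1-/-. The vehicle groups overlapped, and both bleo groups lay above every vehicle library and apart from each other. The means were 30.1 ± 5.63, 29.7 ± 16.7, 490.0 ± 18.9 and 2506 ± 39.7 (SD, n = 3). The ratio of each bleo mean to its own vehicle mean was 16.3 for WT and 84.5 for the libraries labelled Pear1-/-.

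Lrrc15 was far lower and behaved differently after bleo in the 2 genotypes. It had 35.2, 19.3 and 25.2 normalized counts in WT vehicle and 12.3, 2.78 and 9.82 in the vehicle libraries labelled Pear1-/-, the last from only 3 to 13 raw counts. After bleo its WT libraries had 27.6, 25.5 and 16.2, and those labelled Pear1-/- 85.2, 82.5 and 58.1. WT vehicle and WT bleo overlapped, the vehicle libraries labelled Pear1-/- lay below them, and the bleo libraries labelled Pear1-/- lay above all others.

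Of the membrane proteases, Adam12 had 55.8, 22.3 and 54.95 normalized counts in WT vehicle and 18.0, 17.6 and 16.4 in the vehicle libraries labelled Pear1-/-. It had 51.4, 53.0 and 58.7 in WT bleo and 225, 219 and 247 in the bleo libraries labelled Pear1-/-. WT vehicle replicate 2 was near the level of the libraries labelled Pear1-/-, and the other WT libraries of both treatments overlapped. Fap had 50.9, 69.0 and 38.9 in WT vehicle, 77.6, 85.3 and 76.4 in the vehicle libraries labelled Pear1-/-, 56.0, 49.97 and 54.7 in WT bleo, and 82.6, 79.1 and 85.8 in the bleo libraries labelled Pear1-/-. Its libraries labelled Pear1-/- lay above all WT libraries, and vehicle and bleo overlapped within each genotype.

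Of the matrix genes, Matn3 had 15.8, 4.06 and 19.5 normalized counts in WT vehicle and 2.84, 7.42 and 4.37 in the vehicle libraries labelled Pear1-/-. It had 4.59, 11.2 and 14.2 in WT bleo and 60.4, 65.3 and 59.1 in the bleo libraries labelled Pear1-/-. The 3 other groups overlapped at 3 to 17 raw counts, and the last stood above them all. Tgfbi, the most abundant of the 7 genes, had 1903, 2818 and 1801 in WT vehicle, 2907, 2841 and 3112 in the vehicle libraries labelled Pear1-/-, 8682, 8626 and 8724 in WT bleo, and 6596, 6742 and 6667 in the bleo libraries labelled Pear1-/-. It was the only one of the 7 that was highest in WT bleo, and no 2 of its groups overlapped.

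Bdnf, the growth factor of the set, had 58.2, 26.4 and 44.6 normalized counts in WT vehicle and 21.8, 25.0 and 32.7 in the vehicle libraries labelled Pear1-/-. It had 50.5, 57.1 and 56.7 in WT bleo and 93.2, 104 and 108 in the bleo libraries labelled Pear1-/-. WT bleo lay within the range of WT vehicle, and the bleo libraries labelled Pear1-/- lay above every other library. In each of the 7 genes, WT vehicle replicate 2 was the WT vehicle library nearest to the mean of the vehicle libraries labelled Pear1-/-.

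**Figure D1:**
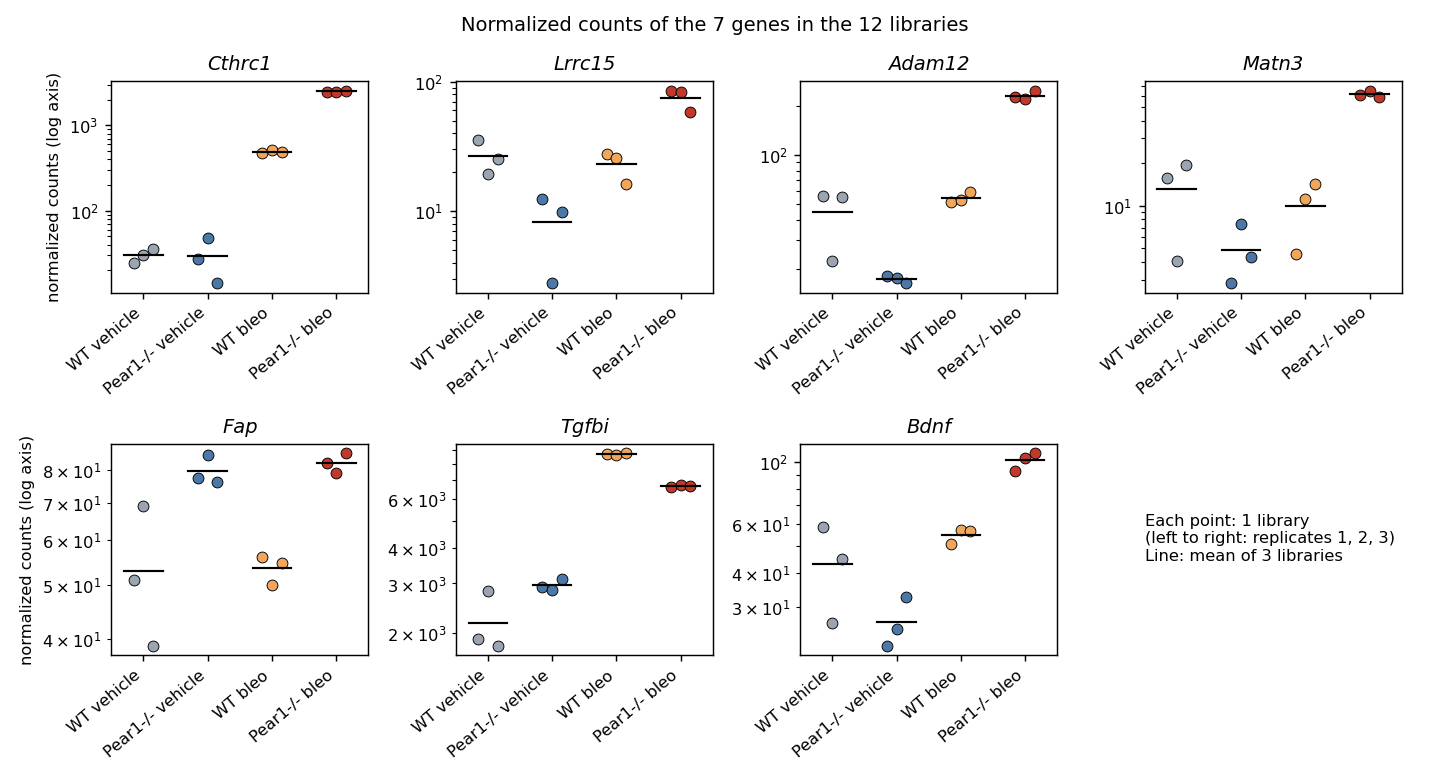
Normalized counts (log axis) of the 7 genes in each of the 12 libraries by group, each panel with its own range, with points for replicates 1, 2 and 3 from left to right and a line for the mean of 3. The bleo libraries labelled Pear1-/- were highest for Cthrc1, Lrrc15, Adam12, Matn3 and Bdnf, WT bleo was highest for Tgfbi, and WT vehicle replicate 2 lies low for Adam12, Matn3 and Bdnf.

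Levels per kilobase of exon, which can be set between genes, were led by Tgfbi, with 64.9 ± 16.4 CPM per kb in WT vehicle and 261 ± 1.98 in WT bleo. Cthrc1 rose to the same order as Tgfbi in the bleo libraries labelled Pear1-/- only, at 177 ± 1.98 CPM per kb against 199 ± 2.18 for Tgfbi, and was at 34.9 ± 1.37 in WT bleo. The other genes stayed between 0.176 and 2.45 CPM per kb as group means, with Lrrc15 the lowest of them in the bleo libraries labelled Pear1-/- at 1.60 ± 0.324. Lrrc15, the gene that names this state together with Cthrc1, was thus measured from few reads in every group.

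In WT mice, bleo raised Cthrc1 and Tgfbi, and Lrrc15, Fap and Bdnf did not pass the test. Cthrc1 rose by a log2 fold change of 4.03 (SE 0.21, edgeR quasi-likelihood adjusted p = 1.16e-09), rank 28 from the highest among 17418 genes. Tgfbi rose by 2.01 (SE 0.12, edgeR adjusted p = 1.55e-09), rank 433. These are 2 of the 5 tested members past both criteria (fold change above 2, adjusted p under 0.05) in the higher direction and 0 in the lower, where 10.5% and 23.3% of all genes tested were called, 33.8% in either direction. On the adjusted p alone the same 2 were higher and 0 lower, where 31.4% and 36.5% of genes were, and the same 2 had groups that did not overlap, as 32.0% of genes did in the higher direction and 36.7% in the lower. In bulk RNA, more cells of a type and more RNA per cell cannot be told apart.

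Bdnf was at 0.37 (SE 0.23), Fap at 0.02 (SE 0.19) and Lrrc15 at -0.17 (SE 0.34) in WT, with edgeR adjusted p from 0.16 to 0.936. Adam12 was at 0.33 (SE 0.23) and Matn3 at -0.36 (SE 0.48). Without WT vehicle replicate 2, Adam12 turned to -0.02 and Matn3 moved to -0.83. Of 12 fits, each without a different library, Bdnf passed the adjusted p in the 1 without WT vehicle replicate 1, at 0.65 (edgeR adjusted p = 0.0242, with 0.666 the highest over the 12). It also passed without the filter on low counts, at 0.52 (edgeR adjusted p = 0.0346). The 2 called genes kept their calls in all 12, at 3.91 to 4.16 for Cthrc1 and 1.89 to 2.24 for Tgfbi.

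After vehicle, Lrrc15 was lower in the libraries labelled Pear1-/-, and Cthrc1 was at nearly the same mean. Lrrc15 differed by a log2 fold change of -1.67 (SE 0.41, edgeR adjusted p = 0.0334), the 1 of 5 tested members past both criteria, where 3.25% of genes were called lower and 0.0689% higher, 3.32% in all. Tgfbi passed the adjusted p alone, at 0.44 (SE 0.12, edgeR adjusted p = 0.0437), where 1.95% of genes did so in the higher direction and 5.29% in the lower. Of the 5 tested members, the groups did not overlap for Fap and Tgfbi, both higher, and for Lrrc15, lower, as for 8.28% and 10.9% of all genes. Those of Adam12, which has no test, did not overlap either, and it was lower. Bdnf was at -0.69 (SE 0.26), Fap at 0.58 (SE 0.18) and Cthrc1 at 0.002 (SE 0.29), with edgeR adjusted p of 0.0832, 0.0553 and 0.998. Adam12 was at -1.33 (SE 0.29) and Matn3 at -1.37 (SE 0.55), the latter with groups that overlapped. Fold changes after bleo in the libraries labelled Pear1-/- are measured from these vehicle levels.

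Those vehicle calls depended on which libraries entered. Without WT vehicle replicate 2 the log2 fold changes were -1.87 for Lrrc15, -0.97 for Bdnf, 0.83 for Fap and 0.66 for Tgfbi, these 4 of 5 with an adjusted p under 0.05, as 22.8% of all genes had in the higher direction and 23.5% in the lower, and -1.67 for Adam12 and -1.83 for Matn3. That fit called more of all genes too, with 2455 past both criteria against 578, and 9194 against 5473 of 17418 at an unadjusted p under 0.05. Over the 12 fits with a library left out, the edgeR adjusted p ranged from 0.00015 to 0.182 for Lrrc15, with 5 under 0.05. Leaving out WT vehicle replicate 1 or 3, or any vehicle library labelled Pear1-/-, ended the call of Lrrc15, and its adjusted p was 0.0502 without replicate 1 or 2 of the bleo libraries labelled Pear1-/-. Fap, at 0.0553 as reported, passed without the filter on low counts (0.67, edgeR adjusted p = 0.00763) and with limma on variance-stabilized values (0.42, limma adjusted p = 0.0434), and its highest over the 12 was 0.271. The adjusted p of Tgfbi was under 0.05 in 1 of the 12, the fit without WT vehicle replicate 2. With only the vehicle groups in the fit, none of the 17418 genes passed both criteria, although 3501 had an unadjusted p under 0.05.

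In the libraries labelled Pear1-/-, bleo raised Cthrc1, Lrrc15, Bdnf and Tgfbi, and Fap did not pass the test. The log2 fold changes were 6.37 for Cthrc1 (SE 0.20, edgeR adjusted p = 8.06e-12), rank 21 of 17418 genes, and 3.18 for Lrrc15 (SE 0.35, edgeR adjusted p = 2.80e-07). Bdnf rose by 1.95 (SE 0.23, edgeR adjusted p = 5.52e-07) and Tgfbi by 1.18 (SE 0.12, edgeR adjusted p = 7.34e-07). The 4 genes past both criteria are of the 5 that were tested, where 8.37% of all genes were called higher, 19.3% lower and 27.7% in either direction. The same 4 passed on the adjusted p alone, where 29.1% were higher and 33.1% lower, and their groups did not overlap, as for 33.2% of genes higher and 37.8% lower. Fap was at 0.05 (SE 0.17, edgeR adjusted p = 0.809). Adam12 and Matn3, chosen for this rise, were at 3.72 (SE 0.23) and 3.62 (SE 0.44).

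Between the bleo groups, Cthrc1 and Lrrc15 were more than 2-fold higher in the libraries labelled Pear1-/-, Bdnf and Fap were higher by less than that, and Tgfbi was lower. Cthrc1 differed by a log2 fold change of 2.34 (SE 0.15, edgeR adjusted p = 2.49e-08), a ratio of means of 5.11. Lrrc15 differed by 1.69 (SE 0.30, edgeR adjusted p = 0.00012), a ratio of 3.26. These 2 of the 5 tested genes passed both criteria, where 6.22% of all genes were called higher, 8.80% lower and 15.0% in either direction. On the adjusted p alone, Bdnf (0.88, SE 0.20, edgeR adjusted p = 0.0016) and Fap (0.61, SE 0.18, edgeR adjusted p = 0.00801) were higher too, where 22.1% of genes were, and Tgfbi was lower by 0.39 on the log2 scale (SE 0.12, edgeR adjusted p = 0.0135), where 24.0% were. The groups did not overlap in any of the 5, which holds for 31.3% of all genes in the higher direction and 31.6% in the lower. Adam12 and Matn3 were at 2.07 (SE 0.19) and 2.61 (SE 0.40).

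**Figure D2:**
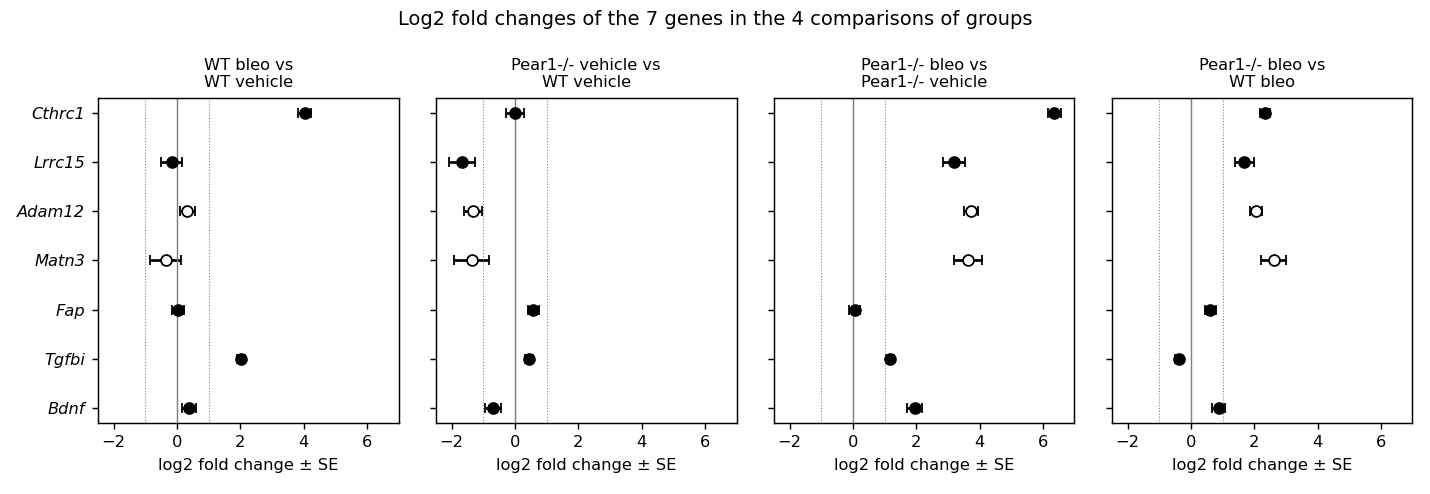
Log2 fold change (horizontal axis, bars for the SE) of the 7 genes in 4 comparisons of groups, with dotted lines at a 2-fold change. Open points are Adam12 and Matn3, which were chosen on such values and have no test. Cthrc1 lies to the right in the 3 comparisons with a bleo group and at 0 after vehicle, and Lrrc15 and Adam12 lie below 0 after vehicle.

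The difference between the bleo effects of the 2 genotypes was tested as an interaction. Cthrc1 had 2.34 (SE 0.34, edgeR adjusted p = 0.000127), Lrrc15 3.35 (SE 0.50, edgeR adjusted p = 3.77e-05) and Bdnf 1.57 (SE 0.33, edgeR adjusted p = 0.000963), the 3 of 5 tested genes past both criteria, where 8.53% of genes were called higher, 6.98% lower and 15.5% in either direction. Tgfbi had -0.83 (SE 0.17, edgeR adjusted p = 0.00138) and so joined these 3 on the adjusted p alone, where 17.8% of genes were higher and 19.3% lower. Without WT vehicle replicate 2 it was at -1.06 and passed both criteria, as 9.72% of genes did in the lower direction. Fap was at 0.03 (SE 0.25, edgeR adjusted p = 0.948). For Lrrc15 the interaction combines a difference of 1.69 between the bleo groups with one of -1.67 between the vehicle groups. For Cthrc1 the interaction and the difference of the bleo groups were equal, the vehicle means being alike.

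Markers of other cells moved with these comparisons. The summed level of the 12 pan-fibroblast markers was 8684 to 11354 CPM in WT vehicle, 11366 to 11630 in the vehicle libraries labelled Pear1-/-, 3778 to 3804 in WT bleo and 6033 to 6161 in the bleo libraries labelled Pear1-/-. That of the 22 leukocyte markers was 7162 to 9504, 9227 to 10548, 37475 to 38841 and 15999 to 16542 in the same order. None of these markers was at 0 in every library of a group. In WT bleo against WT vehicle, 15 of the 22 leukocyte markers passed both criteria higher and 3 lower, and 0 of the 12 pan-fibroblast markers higher and 9 lower, with median log2 fold changes of 2.17 and -1.36 against -0.07 for all genes. Between the bleo groups, 0 of the 22 were higher in the libraries labelled Pear1-/- and 12 lower, and 2 of the 12 higher and 0 lower, with medians of -1.07 and 0.68 against -0.01. The 11 epithelial markers summed to 4833 to 6852 CPM in WT vehicle and 6497 to 7548 in the vehicle libraries labelled Pear1-/-. After bleo they summed to 1858 to 1887 in WT and 799 to 813 in the libraries labelled Pear1-/-. Their medians for bleo against vehicle were -0.90 and -2.37, and those of 10 endothelial markers -0.57 and -0.73. Between the bleo groups, 0 of the 11 epithelial markers were higher and 5 lower past both criteria, with a median of -0.69. The 9 pericyte and smooth muscle markers summed to 253 to 257 CPM in WT bleo and 596 to 632 in the bleo libraries labelled Pear1-/-, but 5 were above 0 and 4 below in log2 fold change, with 3 higher past both criteria, 0 lower and a median of 0.36, which was -0.26 with pan-fibroblast scaling. The 6 mesothelial markers summed to 32.1 to 33.8 and 54.4 to 56.3 CPM, with 5 above 0, 3 higher and 0 lower and a median of 0.86. Tgfbi, which leukocytes also express, was highest where the leukocyte sum was highest, and the part of these shifts in its level and in those of the other members was not tested.

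**Figure D3:**
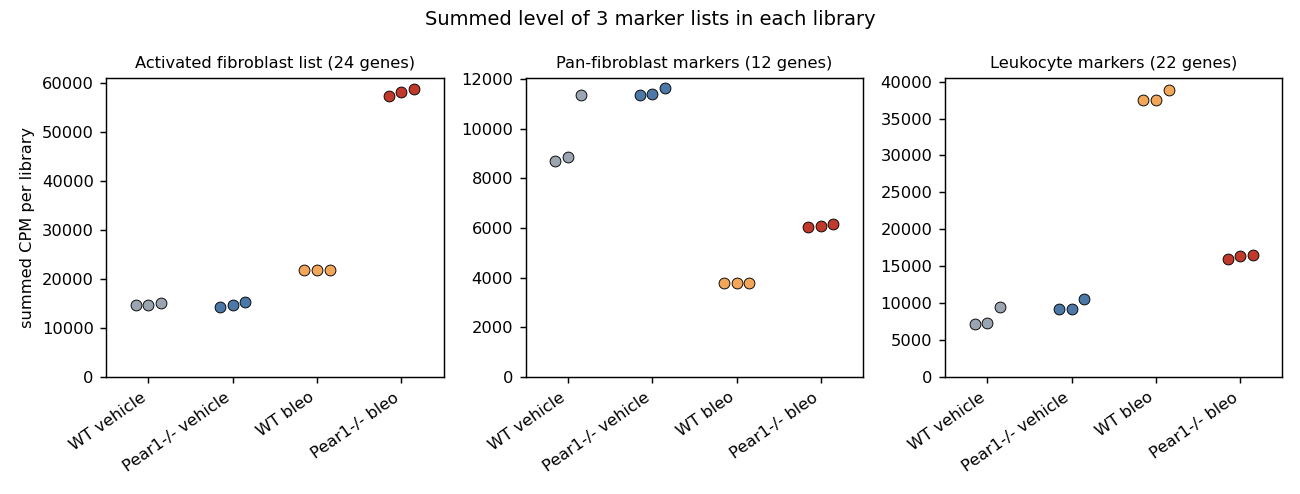
Summed CPM (vertical axis) of the 24 activated fibroblast companion genes, the 12 pan-fibroblast markers and the 22 leukocyte markers in the 3 libraries of each group, drawn from lowest to highest. The pan-fibroblast sum was 8684 to 11630 CPM in vehicle libraries and 3778 to 6161 after bleo, and the leukocyte sum was highest in WT bleo.

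Setting the members against pan-fibroblast markers shifted them together with all genes. The 12 markers did not all move alike. After bleo in the libraries labelled Pear1-/-, 3 were above 0 and 9 below, with a median of -0.73. Past both criteria 0 were higher and 5 lower there, where 8.37% and 19.3% of all genes were. Scaling the libraries to the 12 pan-fibroblast markers moved the median of all genes to 1.203 in WT bleo against WT vehicle, 0.68 for bleo against vehicle in those labelled Pear1-/-, and -0.63 between the bleo groups, and moved every member alike. Between the bleo groups Cthrc1 was then at 1.72 and Lrrc15 at 1.07, both past both criteria as 2.57% of all genes were in the higher direction, and Tgfbi, at -1.01 (edgeR adjusted p = 8.35e-08), then passed both in the lower direction, as 26% of genes did. Bdnf was at 0.26 with an adjusted p no longer under 0.05, and Fap at -0.01 with its sign turned. In WT bleo against WT vehicle, Bdnf (1.64), Fap (1.30) and Lrrc15 (1.10) then passed both criteria higher, the last with its sign turned, as 57.3% of all genes did with that scaling. Adam12 was at 1.60 and Matn3, its sign turned, at 0.89, with no test. Relative to the median of all genes, the members' values differed by at most 0.02 between the scalings in any comparison.

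Levels per 1000 Pdgfra counts also move all genes alike, because the mean of Pdgfra itself was 1360 in WT bleo and 2392 in the bleo libraries labelled Pear1-/-. Cthrc1 had 360.4 ± 16.7 per 1000 in WT bleo and 1048 ± 12.9 in the bleo libraries labelled Pear1-/-, a ratio of 2.91 in place of 5.11. Fap had 39.4 ± 2.11 and 34.5 ± 1.18, and Bdnf 40.3 ± 2.63 and 42.5 ± 3.25, with Fap lower and Bdnf at overlapping means ± SD.

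**Figure D4:**
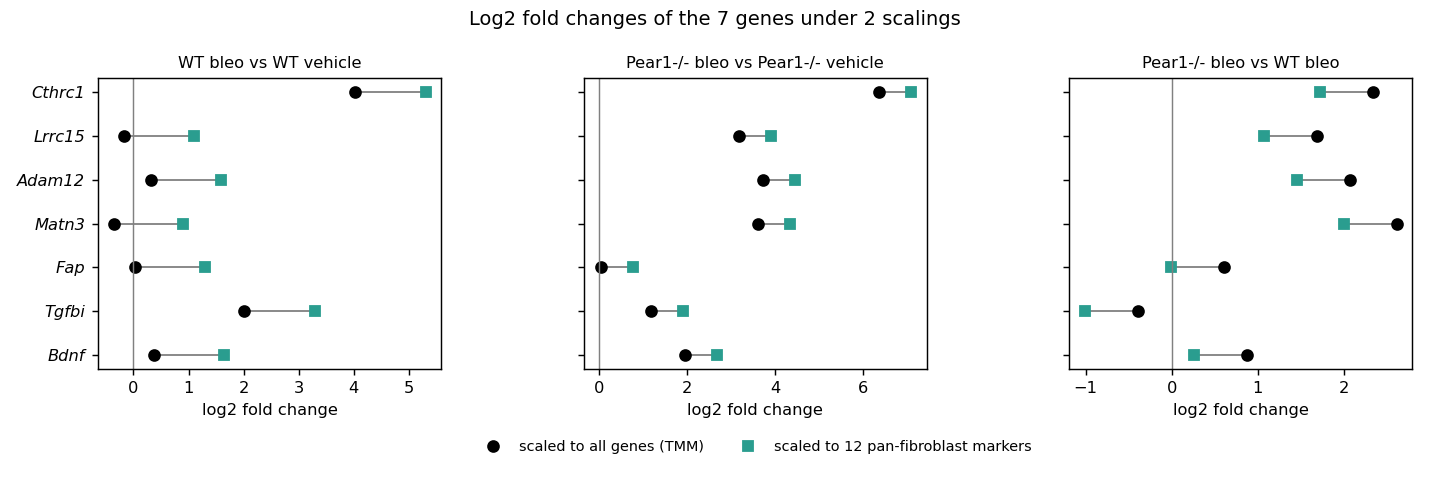
Log2 fold change (horizontal axis) of the 7 genes in 3 comparisons, scaled to all genes (circles) or to the 12 pan-fibroblast markers (squares). The squares lie to the right of the circles after bleo in both genotypes and to the left between the bleo groups, by nearly the same step for each gene, and Fap moves from 0.61 to -0.01 between the bleo groups.

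Companion genes of the activated state were mostly higher in the bleo libraries labelled Pear1-/- than in WT bleo. Of 24 genes that are commonly used to mark it, among them collagens and contractile genes, 18 passed both criteria higher and 0 lower, beside 6.22% and 8.80% of all genes, with a median log2 fold change of 1.34 against -0.01 for all genes. By size these were led by Lox, a collagen crosslinking enzyme (1.83), Grem1, a BMP antagonist (1.81), Col1a1, a chain of type I collagen (1.73), and Sfrp1, a secreted Wnt modulator (1.69). Itgav (-0.65) and Runx1 (-0.51) were lower on the adjusted p alone. With pan-fibroblast scaling, 6 passed both criteria higher and 2 lower, where 2.57% and 26% of all genes did. In WT bleo against WT vehicle, 8 passed higher and 1, Aspn (-1.44), lower, beside 10.5% and 23.3% of all genes, with a median of 0.61. The 4 of largest change were Spp1, osteopontin, which macrophages also make (5.004), Grem1 (4.31), Tnc, tenascin C (2.70), and Fn1, fibronectin (2.64).

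**Figure D5:**
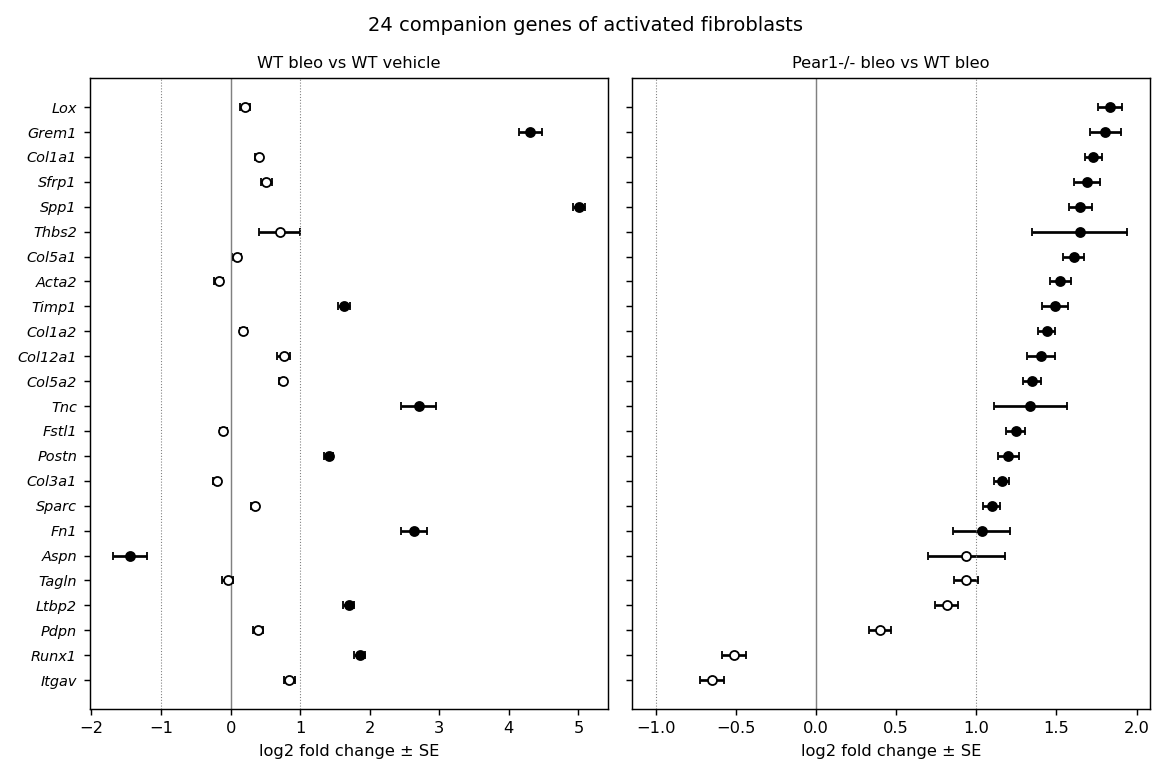
Log2 fold change (horizontal axis, bars for the SE) of the 24 companion genes in WT bleo against WT vehicle and in the bleo libraries labelled Pear1-/- against WT bleo, comparisons that share the WT bleo libraries. Filled points passed both criteria: 9 on the left, 8 of them higher, and 18 on the right, all higher.

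Genes commonly induced by TGF-β moved less evenly. Of 15 such genes in the table, 6 passed both criteria higher in the bleo libraries labelled Pear1-/- than in WT bleo and 0 lower, beside 6.22% and 8.80% of all genes, with a median of 0.50. They were led by Cdkn2b, a cell cycle inhibitor (1.57), Eln, elastin (1.53), Lmcd1, a LIM domain cofactor (1.49), and Loxl2, a lysyl oxidase relative (1.49). The feedback genes Skil (-0.81), Smad7 (-0.43) and Pmepa1 (-0.32) and the ligand Tgfb1 (-0.46) were lower on the adjusted p alone. With pan-fibroblast scaling the median of the list was -0.12, where that of all genes was -0.63, so the list lay 0.51 above all genes under both scalings. With that scaling 0 of the 15 passed both criteria higher and 3 lower, where 2.57% and 26% of all genes did. In WT bleo against WT vehicle, Pmepa1, a feedback inhibitor of TGF-β signalling, was higher (1.55) and Nox4, an oxidase that makes hydrogen peroxide, was lower (-1.24), the only 2 of the 15 past both criteria, where 10.5% of all genes were called higher and 23.3% lower. Nox4 turned to 0.03 with pan-fibroblast scaling, where the median of all genes was 1.203.

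Relatives and partners of the 7 genes gave counts near those of all genes. Of 24 tested, 2 were higher and 3 lower past both criteria in the bleo libraries labelled Pear1-/- than in WT bleo, 8.33% and 12.5% beside 6.22% and 8.80% of all genes, with a median of 0.04. With pan-fibroblast scaling 0 were called higher and 6 lower, with a median of -0.57, and the list lay 0.05 above the median of all genes under both scalings. Lrrc17, a secreted leucine-rich repeat protein, was higher (1.51), as was Ror2, a Wnt co-receptor that CTHRC1 acts with (1.31). Itgb5, an integrin chain (-1.23), Plau, urokinase (-1.33), and Comp, a cartilage matrix partner of the matrilins (-1.09), were lower. The same 2 genes were higher in the interaction, with 1.60 for Lrrc17 and 1.01 for Ror2, and Itgb5 (-1.14) and Plau (-1.14) were lower. In the interaction Ror2 was at 0.46 and not past the threshold with pan-fibroblast scaling.

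Ntf3 and Ntf5, relatives of Bdnf, were lower after bleo where Bdnf was not. In WT bleo against WT vehicle, Ntf3 was at -2.66, Ntf5 at -2.71, from 0 to 4 raw counts after bleo, and the BDNF receptor Ntrk2 was at -1.45. In the libraries labelled Pear1-/-, these 3 were at -2.81, -1.94 and -1.76, all past both criteria as reported. Ntf5 lost its call there with 5 of 8 other settings, with an adjusted p from 0.0616 with the replicate block to 0.19 with pan-fibroblast scaling, and kept an adjusted p under 0.05 in 4 of the 12 fits with a library left out. Of the remaining relatives past both criteria in WT, Plau (2.79), Itgb5 (1.87) and the ADAM12 relative Adam19 (1.46) were higher, and Lrrc17 (-2.62), Matn4, another matrilin (-1.38), and Itgb3, an integrin chain (-1.28), were lower. In the libraries labelled Pear1-/-, Plau (1.65) and Adam19 (1.22) were higher and Lrrc17 (-1.02) and Matn4 (-1.91) lower after bleo. With pan-fibroblast scaling Itgb3 in WT was at 0.001, its sign turned, and Matn4 (-0.11), Ntrk2 (-0.17) and Ntf5 (-1.49) no longer passed.

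The genes most like Cthrc1 over the 12 libraries, by Pearson's r of log2 CPM, were Vdac3 (0.995), Usp14 (0.995), Rgs16 (0.992), Hmgb3 (0.992) and 1810011O10Rik (0.991), among the 10453 genes whose mean reached 3 on that scale. With so few libraries in 4 groups, such values describe the order of the group means. Of the other members, Adam12 was most like Cthrc1 (r = 0.878, rank 1357 of 17417 genes), followed by Bdnf (0.853), Tgfbi (0.843), Matn3 (0.757), Lrrc15 (0.713) and Fap (0.251). The pair most alike among the 7 was Adam12 and Bdnf (r = 0.967). Adam12 and Matn3 were chosen for their rise in the bleo libraries labelled Pear1-/-, where Cthrc1 and Bdnf were also highest. Their r with other members follows in part from that choice.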

How the data were processed

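RNA of sorted CD140a+ mouse lung cells was amplified with the SMART-Seq v4 kit, and the reads were aligned by the authors to GRCm38 (mm10) with HISAT2. The counting program is not given in the sources used here. The authors deposited raw counts per gene and a normalized signal, which equals those counts divided by DESeq2 size factors in every library. FastQC is named in the submitters' processing notes. Libraries were grouped by GEO's labels.

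Raw counts were tested with edgeR 4.0.16 in R 4.3.3: TMM factors, filterByExpr, a robust quasi-likelihood fit of 1 mean per group over the 12 libraries, 2-sided, with Benjamini-Hochberg adjustment over 17418 genes. A call needed a fold change above 2 and an adjusted p under 0.05. Normalized counts are the deposited signal, and CPM uses TMM factors. The fit was tested on simulated data. Alternatives were DESeq2 1.42.0, RLE factors, no filter, limma 3.58.1 on variance-stabilized values or on log2 of the normalized values plus 1, only the groups compared, the replicate block, scaling to 12 pan-fibroblast markers, and leaving out each library in turn. Counting error limits genes of few reads, since 3 counts are 0.287 to 0.448 CPM per library.

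The members, the gene lists and the tests were chosen with earlier results of these data known. The design had Adam12 and Matn3 tested in WT bleo against WT vehicle and between the vehicle groups. These tests were dropped, because the choice of the genes may have used those groups. Genes named beyond the members are the relatives past both criteria in any comparison, the 4 of largest change past both criteria in each companion list between the bleo groups and in WT, the 5 most like Cthrc1, and Pear1, Pdgfra and Ptprc. Aspn, Itgav, Runx1, Skil, Smad7, Tgfb1 and, between the bleo groups, Pmepa1 were named after their values were seen. Exon lengths and positions are from GENCODE M21 and promoter windows from RefSeq. Protein sequences were not used here, and 1 gene of the list of relatives is not reported here.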

Additional observations from a re-analysis of the deposited data

Results flagged for a closer look

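The effect of bleo differed between the libraries labelled Pear1-/- and WT, by the interaction test, for 4 of the 5 members that were tested, 3 higher and 1 lower, where 17.8% of all genes were higher and 19.3% lower on the same adjusted p. The log2 difference of the 2 effects was 2.34 for Cthrc1, which rose in both genotypes, and 3.35 for Lrrc15, which rose in the libraries labelled Pear1-/- and was at -0.17 in WT. It was 1.57 for Bdnf and -0.83 for Tgfbi, whose rise was the smaller one in the libraries labelled Pear1-/-. Over the 12 fits with a library left out, these differences ranged from 2.04 to 2.85 for Cthrc1, from 2.92 to 3.79 for Lrrc15, from 1.30 to 1.85 for Bdnf and from -1.06 to -0.71 for Tgfbi, and all kept an edgeR adjusted p under 0.05. WT vehicle replicate 2 enters each of them. Without it they were 2.33, 3.55, 1.85 and -1.06.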

How the results depend on the processing

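Of 195 fold changes of the 5 tested members under alternatives other than leaving out a library, 172 kept their direction and their side of an adjusted p of 0.05, and 187 their call on both criteria. With a library left out these were 270 and 292 of 300. Of the values of Adam12 and Matn3, which have no test, 77 of 78 and 118 of 120 kept their direction. Both were chosen for a rise in the bleo libraries labelled Pear1-/-, so a kept direction in comparisons with those libraries lends no support. Those that turned were all in WT bleo against WT vehicle. What made any of the members' values change was not tested. Members called are of the 5 tested. With pan-fibroblast scaling, 5 members were called in WT bleo against WT vehicle, where Lrrc15 turned to 1.10, Matn3 to 0.89, Itgb3 to 0.0010 and Nox4 to 0.029. Between the bleo groups Fap turned to -0.0100 and Pear1 to -0.14, and in the interaction Fap to -0.52. Genes called were 11656 in WT (5886 as reported), 7592 in the libraries labelled Pear1-/- (4825), 4970 between the bleo groups (2616) and 4497 in the interaction (2701). The companion list then had 23, 8 and 10 calls in WT, between the bleo groups and in the interaction (9, 18 and 17). Of these, 23, 6 and 8 were higher (8, 18 and 17) and 0, 2 and 2 lower (1, 0 and 0). The TGF-β list had 12 and 3 calls in WT and between the bleo groups (2 and 6). The 12 were all higher (1 higher and 1 lower). The 3 were all lower, where the 6 as reported were all higher. Between the bleo groups, 2.57% of all genes were then called higher (6.22%) and 26% lower (8.80%).

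Without the filter, 13891 genes were called in WT, 2919 between the vehicle groups (578) and 8045 in the libraries labelled Pear1-/-, and Pear1 turned to 0.018 between the vehicle groups and Fap to -0.044 in the interaction. Bdnf in WT and Fap between the vehicle groups gained an adjusted p under 0.05 without the filter, and Fap also with limma on variance-stabilized values. With the latter, 3337, 192, 2216, 883 and 1361 genes were called in WT, between the vehicle groups, in the libraries labelled Pear1-/-, between the bleo groups and in the interaction. Between the vehicle groups, 0 members were called with it or with only those groups in the fit, which called 0 genes, and 1 TGF-β gene was called with it and with limma on log2 values. Cthrc1, at 0.002 between the vehicle groups, turned to -0.0021 with DESeq2, -0.0048 with RLE factors, -0.059 with variance-stabilized values, -0.16 with log2 values, -0.017 with only those groups and -0.067 with pan-fibroblast scaling. Fap in WT turned to -0.0099 with DESeq2 and -0.011 with RLE factors, and in the interaction to -0.0042 with log2 values.

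With a library left out, WT bleo against WT vehicle gave -0.36 to 0.082 for Lrrc15, -0.020 to 0.53 for Adam12, -0.83 to 0.066 for Matn3 and -0.16 to 0.27 for Fap. Between the vehicle groups Cthrc1 ranged from -0.51 to 0.31, members called from 0 to 1, genes called from 0 to 2455, companion genes from 0 to 2 and TGF-β genes from 0 to 1. Fap in the interaction ranged from -0.22 to 0.21.

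Replicate numbers did not pair the samples: same-numbered libraries deviated from their group means with r from -0.161 to 0.0997 over 18 pairs. With the replicate block, Cthrc1 between the vehicle groups was at -0.0021 and no member's call changed, while Ntf5 in the libraries labelled Pear1-/- lost its call, as it did with DESeq2, without the filter, with variance-stabilized values and with pan-fibroblast scaling. Bdnf in the interaction fell just under a 2-fold change with variance-stabilized values (0.997). Depth limits Lrrc15 and Matn3 most, at 3 to 29 counts in vehicle libraries.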
